A study of Mus musculus with 3 samples.

Results

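The Aurkb neighbourhood is a stretch of mouse chromosome 11 in which 8 protein-coding genes, of 21938 annotated on the assembled chromosomes, lie close together: Pfas, Ctc1, Aurkb, Borcs6, Tmem107, Vamp2, Per1 and Hes7. It was selected on the number of open chromatin sites away from gene starts around the start of Aurkb, so that number is a description and was not tested. Every peak within 50 kb of the Aurkb start (chr11:68995647-69095647, build mm10, which is GRCm38) was sorted into promoter peaks, within 1 kb of any annotated transcript start, and distal peaks, farther away. The starts of 7 of the 8 genes lie in that window, and Hes7 starts 74.8 kb downstream of Aurkb. Of 24196 regions of the genome with a peak in all 3 replicates, 8810 were distal, and 14 of these lay in the window. What those 14 regions are was the question, with transfer RNA genes as the candidate named in it.

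The assay was DNase-seq, in which the enzyme DNase I cuts accessible DNA and the cut ends are sequenced. The samples were 3 replicates of 1 group: liver tissue of mouse embryos aged 13.50 days, of strain C57BL/6N,129, homozygous for a globin mutation labelled as an HS2 HS3 deletion. All 3 carry the same donor label, and no unaltered liver was analysed here, so there was no comparison between genotypes. The spread between the replicates is the measure of error, and values are mean ± SD (n = 3). The peak signal is the highest cut density in a peak, which the authors normalized to read depth. The steps between signal values correspond to about 79.4, 119.5 and 132.7 M cuts in replicates 1, 2 and 3 if each step stands for 1 cut in a library scaled to 1 M, and no file states the depth. Replicate 2 had the most peaks (57314, against 28209 in replicate 1 and 41319 in replicate 3) and the highest median signal over all common regions (2.79, against 2.36 and 2.35). Promoters of 8 of 8 red cell precursor markers were open in all 3 replicates (50.9% of all protein-coding genes were), while 0 of 5 hepatoblast markers and 0 of 3 each for macrophages, endothelium, neurons and skeletal muscle were. Among the hepatoblast markers Alb and Afp were at 0 in every replicate, and the highest value was 1.16, at Apoa1 in replicate 2. Fewer cells of a type and a weaker signal per cell cannot be told apart in whole tissue.

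Transfer RNAs carry amino acids to the ribosome. Their short genes are read by RNA polymerase III from a promoter that lies inside the transcribed sequence, in a pair of elements called the A box and the B box. The factor TFIIIC binds both boxes and places TFIIIB just upstream of the gene, and TFIIIB in turn recruits the polymerase, which stops at a run of T. In mammals tRNA genes lie in clusters, and such a cluster borders Aurkb.

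The distal cluster was made up mostly of tRNA genes. RefSeq lists 11 tRNA genes within 50 kb of the Aurkb start, of 403 on the assembled chromosomes, and the GENCODE annotation that supplied the gene starts lists none there. Hence a peak over a tRNA gene is counted as distal unless another gene starts close by. The 11 genes stand for 7 amino acids and 8 anticodons, and all lie between genes. The 7 on the upstream side (at -8.64 to -3.82 kb from the Aurkb start, between Ctc1 and Aurkb) are 6 on the plus strand and 1 on the minus strand. The 4 on the downstream side (at 16.7 to 17.9 kb, between Borcs6 and Tmem107) are all on the minus strand. Sequences of 9 of them, from the RefSeq GRCm38 assembly and written 5′ to 3′ along the tRNA, are shown because these genes are the finding. Capitals mark the A box, which begins at base 8 of each gene, and then the B box.
tRNA-Thr (AGT), n-TTagt8 at chr11:69037853-69037926 (+) and n-TTagt7 at chr11:69062744-69062817 (-): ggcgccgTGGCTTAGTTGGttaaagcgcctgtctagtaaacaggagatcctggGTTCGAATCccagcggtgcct
tRNA-Trp (CCA), n-TWcca7 at chr11:69041826-69041897 (+) and n-TWcca6 at chr11:69063495-69063566 (-): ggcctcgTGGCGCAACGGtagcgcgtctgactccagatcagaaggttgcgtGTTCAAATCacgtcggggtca
tRNA-Ser (AGA), n-TSaga4 at chr11:69037477-69037558 (+): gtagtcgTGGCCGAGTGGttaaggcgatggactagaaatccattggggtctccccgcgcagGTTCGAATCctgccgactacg
tRNA-Ser (GCT), n-TSgct3 at chr11:69063042-69063123 (-): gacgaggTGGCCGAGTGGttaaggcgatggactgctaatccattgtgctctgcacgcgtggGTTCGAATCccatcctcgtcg
tRNA-Pro (CGG), n-TPcgg3 at chr11:69040385-69040456 (+): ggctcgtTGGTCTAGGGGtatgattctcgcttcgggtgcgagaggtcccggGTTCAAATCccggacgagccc
tRNA-Asp (GTC), n-TDgtc9 at chr11:69040984-69041055 (+): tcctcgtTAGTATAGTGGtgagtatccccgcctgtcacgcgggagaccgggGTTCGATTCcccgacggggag
tRNA-Gly (TCC), n-TGtcc6 at chr11:69041278-69041349 (-): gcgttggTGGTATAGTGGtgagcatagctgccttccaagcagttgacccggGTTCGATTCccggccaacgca

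The 11 genes held 8 distinct sequences, since 3 sequences, among them those of the threonine and tryptophan genes, occur once on either side of Aurkb with 0 differences between the copies. The serine genes of either side have different anticodons and differ at 20 of 82 bases. An A box was found in 11 of 11 genes and in 95.8% of all 403. The B box, searched as GTTCGANNC, was found in 8 of 11 and in 62.0% of all. The proline gene and both tryptophan genes differ from this word at the fifth base, a form that was added to the search after the sequences were seen and that brings the count to 11 of 11. Of the 239 tRNA genes over the genome within a region common to all 3 replicates, 225 have either form. A run of TTTT lay within 30 bases after 9 of 11 genes and after 85.6% of all.

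In replicates 1, 2 and 3 the window contained 23, 29 and 28 peaks. Distal peaks numbered 16, 18 and 17, or 17 ± 1, and promoter peaks 7, 11 and 11. Of the distal peaks, 10, 11 and 11 overlapped a tRNA gene, which is 62.5%, 61.1% and 64.7%. All 3 replicates thus gave nearly the same split, although replicate 2 listed far more peaks than replicate 1 over the genome. Median spacing between neighbouring distal peaks was 530, 800 and 500 bp, and the widest gap, 25510, 25480 and 25490 bp, lay across Tmem107 and Vamp2. Distal peaks over a tRNA gene had a median width of 190, 220 and 200 bp.

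**Figure D1:**
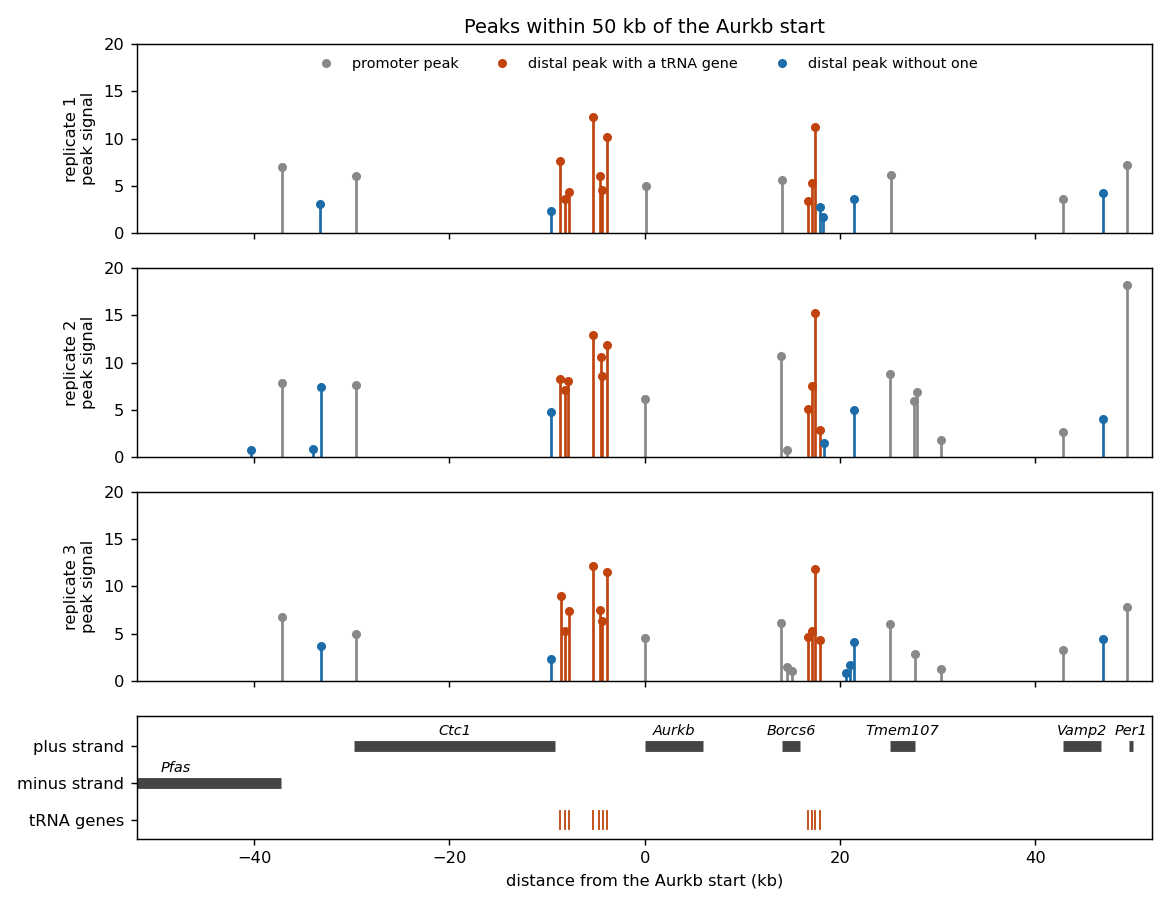
Peaks within 50 kb of the Aurkb start, by replicate: the horizontal axis is the distance from that start in kb, the height of each stem is the peak signal, and the lowest panel shows the protein-coding genes by strand and the tRNA genes as ticks. The peaks with a tRNA gene stand in 2 groups, from -8.64 to -3.82 kb and from 16.7 to 17.9 kb, and include signals above 10 in every replicate.

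Of the 14 distal regions common to all 3 replicates, 10 held a tRNA gene (71.4%), against 174 of 8810 distal regions over the genome (1.98%). Conversely 11 of 11 tRNA genes in the window were reached by a common region, against 239 of 403 over the genome (59.3%). Because the window was picked for its many distal sites, neither share is independent of that choice. The 10 regions had a median signal of 7.34, the other 4 in the window 4.24, all 174 distal regions with a tRNA gene 5.59 and all 8810 distal regions 1.76. Among the 10 regions, 7 exceeded the signal that 95% of all distal regions stay below (5.34), and of the 4 without a tRNA gene 0 did.

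Within 50 kb of its start Aurkb had 14 common distal regions, while the median protein-coding gene had 0 and the highest had 18. Of 21938 protein-coding genes 10 had 14 or more (0.0456%), among them Aurkb, Borcs6, Tmem107 and Vamp2, whose windows share regions. Without the regions that hold a tRNA gene, Aurkb had 4, a number that 769 genes (3.51%) reach or exceed. The same tRNA genes count for its neighbours: Tmem107 had 18 distal regions, of which 13 held a tRNA gene, Borcs6 15 with 10, Vamp2 15 with 11, Ctc1 12 with 10, Per1 12 with 8, Pfas 8 with 6 and Hes7 7 with 4. Of the 5 neighbourhoods elsewhere with the most distal regions, those of Abt1 and Zfp184 on chromosome 13 (14 of 18 and 13 of 15) and of Fcgr3 on chromosome 1 (14 of 15) were also mostly tRNA genes. The other two, around Gm21887 on the X chromosome and Ccr1 on chromosome 9, held 16 and 13 distal regions with 0 tRNA genes, so a dense neighbourhood is not always one of tRNA genes.

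**Figure D2:**
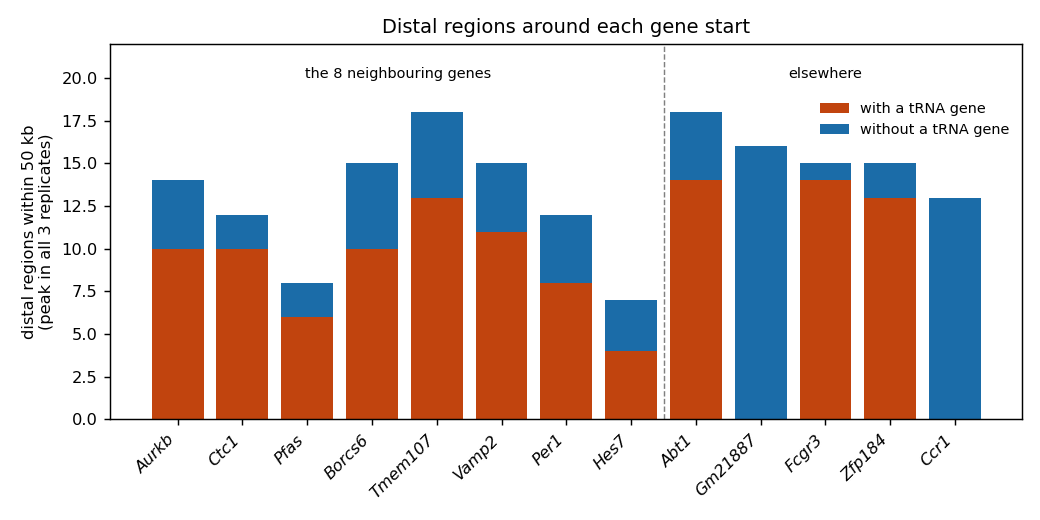
Number of distal regions common to all 3 replicates within 50 kb of each gene start, divided into those with and without a tRNA gene, for the 8 neighbouring genes and for 5 dense neighbourhoods elsewhere. Regions with a tRNA gene make up 10 of 14 at Aurkb and 0 of 16 at Gm21887.

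Signals at the tRNA genes ranged widely, with the same 3 genes highest and the same gene lowest in every replicate. The serine gene n-TSgct3, downstream, had the highest mean, with signals of 11.2, 15.3 and 11.8 in replicates 1, 2 and 3, or 12.8 ± 2.19. The proline gene n-TPcgg3, upstream, had 12.3, 12.9 and 12.2 (12.5 ± 0.385), and the tryptophan gene n-TWcca7 had 10.2, 11.8 and 11.6 (11.2 ± 0.884). These 3 were the only ones of the 11 with all 3 values above 10, with n-TPcgg3 above n-TWcca7 in every replicate and n-TSgct3 overlapping both. The order of n-TSgct3 and n-TPcgg3 rests on replicate 2, since n-TPcgg3 was higher in replicates 1 and 3. The aspartate gene n-TDgtc9 had 6.04, 10.6 and 7.55 (8.06 ± 2.33). Those 4 genes lie in 4 of the 5 strongest distal regions, and the region of the aspartate gene also contains the glycine gene n-TGtcc6.

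In replicate 2, a 480-bp peak spanned the aspartate and glycine genes, and a second listed peak of 8.60 lay over the glycine gene alone. With the higher value, n-TGtcc6 had 4.55, 10.6 and 6.39. The threonine gene n-TTagt8 had 4.33, 8.10 and 7.41, and its copy n-TTagt7 had 5.30, 7.48 and 5.33. The serine gene n-TSaga4 had 3.60, 7.10 and 5.25. Replicate 1 had the lowest value at 10 of the 11 genes and replicate 2 the highest at 9.

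The weakest site was the second tryptophan gene, n-TWcca6. In replicate 1 its peak ended 14 bp short of the gene, on the upstream side, with a signal of 2.82, and in replicates 2 and 3 the peak overlapped the gene with 2.90 and 4.30. Its mean of 3.34 ± 0.832 was 3.82 times below that of n-TSgct3.

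These pairs allow the same sequence to be compared in a pair of places. The tryptophan gene upstream of Aurkb had 3.60, 4.07 and 2.68 times the signal of its identical copy downstream, a log2 ratio of 1.77 ± 0.31, and the values of the copies did not overlap. The threonine copies overlapped, with ratios of 0.817, 1.08 and 1.39 (0.10 ± 0.38). The tryptophan copies thus differed by more than the spread between replicates, in the same direction in every replicate, and the threonine copies did not. No test was run on these ratios, since the genes were singled out after their values were seen.

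Outside the gene the copies have little in common. Over the 50 bases just upstream, the tryptophan copies differ at 38 and the threonine copies at 35. Those upstream bases, where footprints lay, are shown for the tryptophan pair, and both lines end at the base before the gene.
n-TWcca7 upstream, chr11:69041776-69041825 (+): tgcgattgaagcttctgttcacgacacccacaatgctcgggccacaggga
n-TWcca6 upstream, chr11:69063567-69063616 (-): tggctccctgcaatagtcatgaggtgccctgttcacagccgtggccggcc

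**Figure D3:**
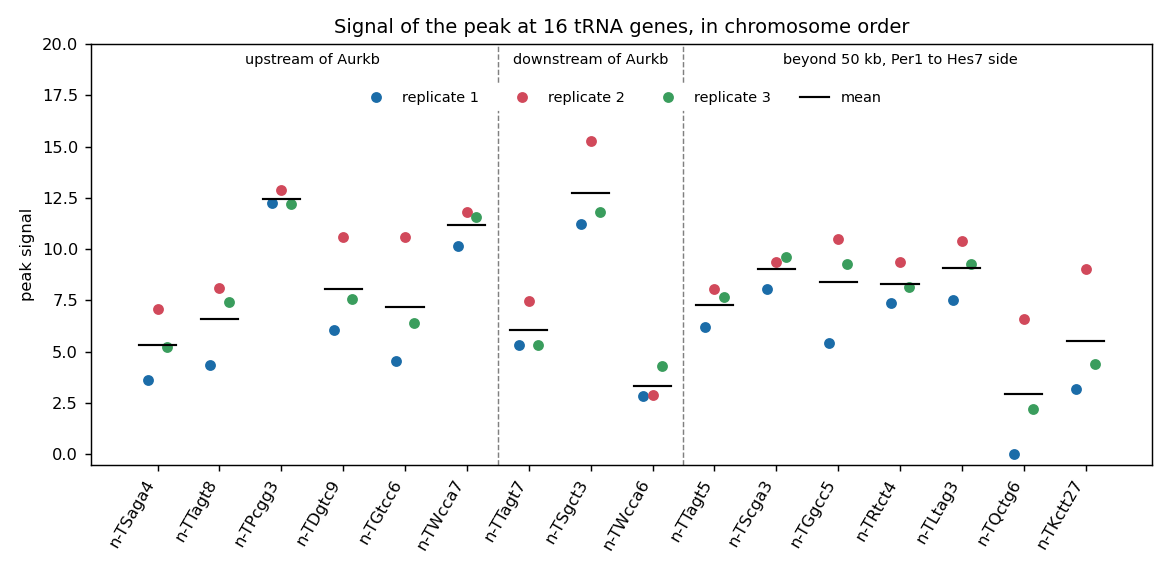
Peak signal at 16 of the 18 tRNA genes of the run in chromosome order, with 1 point per replicate and a bar at the mean; where no peak overlapped the gene, the nearest within 100 bp was used, and 0 means none. n-TSgct3 (12.8), n-TPcgg3 (12.5) and n-TWcca7 (11.2) have the highest means, and n-TQctg6 and n-TWcca6 the lowest.

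Footprints are short stretches inside open chromatin with fewer cuts than the bases beside them, as a bound protein leaves. The authors called them in each replicate, and each listed footprint carries the same threshold of 0.01. At the tRNA genes they took a shared form. With the first upstream base as -1, a footprint overlapped the stretch from -40 to -15 at 10, 11 and 11 of the 11 genes, and at 10 of 11 in all 3 replicates. Over all 32 cases its median extent was from -48 to -8. The stretch is longer than the A box or the B box and any shared base counted, so its counts and theirs are not on like terms. The same stretch was in a footprint in all 3 replicates at 81.6% of the other 228 open tRNA genes, and the genes around Aurkb were not tested against them.

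A second footprint covered the B box. Counting both spellings of the fifth base, the B box overlapped a footprint at 10, 10 and 11 of the 11 genes, with a median extent from base 42 to base 75. The exception was n-TWcca6, the gene with the weakest peak, where the B box was in a footprint in replicate 3 alone. Among other open tRNA genes with a B box, 87.4% had it in a footprint in all 3 replicates. The A box was different: it overlapped a footprint at 4, 3 and 3 of 11 genes, and at 2 of 11 in all replicates, against 18.6% of other open genes. Between the upstream and the B box footprints lay bases that were in a footprint at 0 of 11 genes in every replicate, among them base 20 of the gene.

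Reads from inside the genes cannot always be placed, and this differs along the gene. Of the 36-base words that lie wholly inside a gene, 0% were unique in the genome for each of the 11, while with 100 bases on either side 78.9% to 84.0% were. At base -31, words in both directions were unique for 11 of 11 genes. Over most of the gene only the word in 1 direction was, and at base 37 neither was at any of the 11 (a 0 of 11 count in each direction). The part of placement in the footprints inside these genes was not tested, and the read length is not given in the sources used here. Over the genome, 114 tRNA genes have 50% or more unique words inside the gene. Of the 54 open ones with a B box, 48 had it in a footprint in all 3 replicates (88.9%), against 86.8% among genes with 0% unique words. With 100 bases on either side counted, it was 181 of 199 (91.0%) among open genes with 80% or more unique words. Among those with fewer it was 16 of 26 (61.5%), so the comparison depends on the measure of uniqueness.

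**Figure D4:**
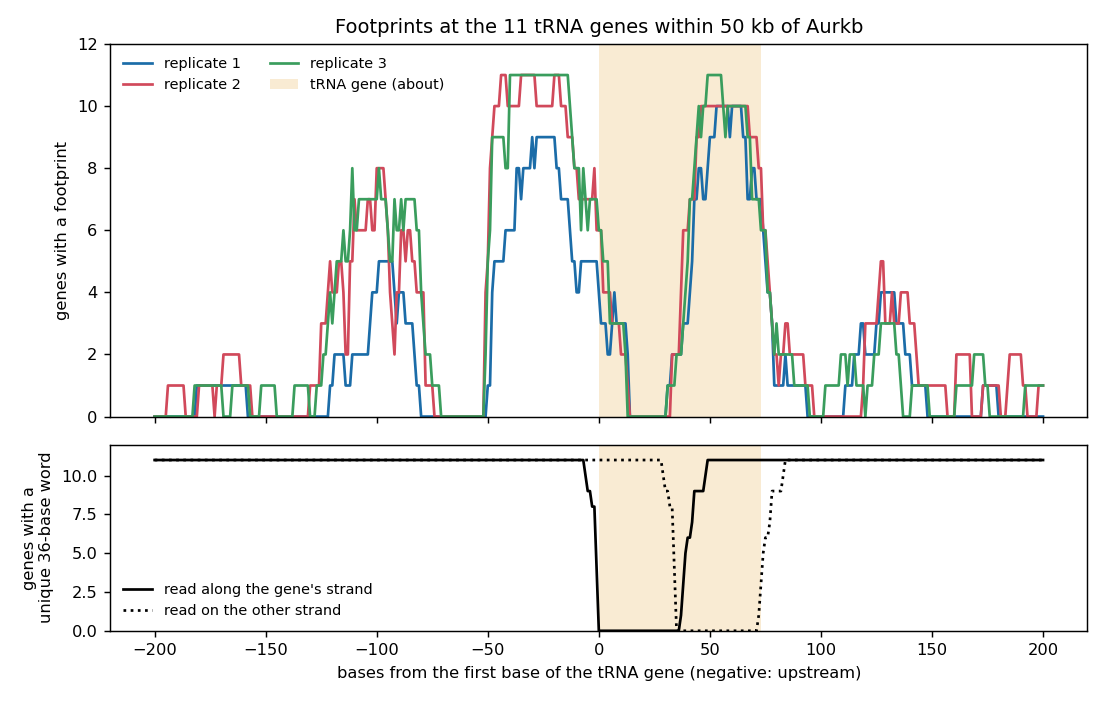
Number of the 11 tRNA genes near Aurkb with a footprint at each base, by replicate, against the distance in bases from the first base of the gene (shaded), and below it the number whose 36-base word starting at that base is unique in the genome, for each read direction. Footprints pile up just upstream of the gene, at 11 of 11 genes in replicates 2 and 3, and over the B box, with none near base 20.

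Distal regions in the window held 4, 4.79 and 4.57 footprints on average (4.45 ± 0.406), against 2.88, 3.36 and 3.36 (3.20 ± 0.277) over all distal regions. In the window, regions with a tRNA gene had 4.60 ± 0.361 and those without 4.08 ± 0.804, which overlap. The counts were not adjusted for width or signal, which were higher in the window.

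The run of tRNA genes does not end with the window. With neighbours less than 50 kb apart, it extends over 88.2 kb, past Per1 and Hes7, and holds 18 genes for 11 amino acids, of which 17 were in a common region (94.4%). The 7 further genes lie 64.8 to 79.6 kb after the Aurkb start. Between Per1 and Hes7, n-TTagt5 had signals of 6.20, 8.03 and 7.67, n-TScga3 8.06, 9.39 and 9.61, and n-TGgcc5 5.42, 10.5 and 9.27. The arginine gene n-TRtct4 lies in the untranslated part of Hes7, on the strand opposite to it, and had 7.40, 9.39 and 8.16. Past Hes7, n-TLtag3 had 7.52, 10.4 and 9.27, and n-TKctt27, whose anticodon the annotation gives as TTT, had 3.18, 9.05 and 4.41. The 1 gene outside a common region was the glutamine gene n-TQctg6, with no peak in replicate 1 in the shorter of the authors' peak lists (1.27 in the longer) and 6.59 and 2.21 in the others. At all 7 further genes the B box was in a footprint in every replicate. That includes n-TRtct4 and n-TScga3, for which 82.7% and 70.2% of the words inside the gene are unique.

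Among 14 runs of 5 or more tRNA genes over the genome, 2 had every gene open, both shorter than this one: 8 genes at chr11:48818542-48857055 and 7 on chromosome 14. Among the runs with more genes than this one, those on chromosome 13 had 28 of 36, 26 of 32 and 17 of 24 genes open. Others had 17 of 25 on chromosome 1, 13 of 25 on chromosome 3 and 0 of 48 on chromosome 6. These shares are set side by side without a test, since genes in a run share copies and mappability.

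The 4 common distal regions without a tRNA gene were scattered. The one at chr11:69012341-69012580, between Pfas and Ctc1, had 3.14, 7.43 and 3.76. That at chr11:69035961-69036180, in a coding exon near the end of Ctc1, had 2.36, 4.80 and 2.40. Replicate 2 had the highest value at both. The region at chr11:69092441-69092640, past the end of Vamp2 and before Per1, had 4.23, 4.02 and 4.48, the closest agreement of the 4, and held none of the motifs searched. The region at chr11:69066961-69067160, 3.65 kb before Tmem107, had 3.59, 4.99 and 4.09. It held the words searched for NF-Y and KLF factors, which occur in 20.9% and 22.5% of all distal regions. The region between Pfas and Ctc1 held those for NF-Y and ETS factors and an A box, and that in Ctc1 an A box. An A box occurs in 31.2% of all distal regions and the ETS word in 2.67%. The region before Tmem107 alone of the 4, and 1 of the 10 with a tRNA gene, held AGATAA, the binding word of GATA factors. GATA factors direct red cell development. That word, searched on both strands in 200 bases, occurs in 14.1% of all distal regions and 3.93% of promoter regions. In the region before Tmem107 it overlapped a footprint in 2 of 3 replicates. The whole region, on the plus strand and with the word in capitals, reads as follows.
chr11:69066961-69067160 (+): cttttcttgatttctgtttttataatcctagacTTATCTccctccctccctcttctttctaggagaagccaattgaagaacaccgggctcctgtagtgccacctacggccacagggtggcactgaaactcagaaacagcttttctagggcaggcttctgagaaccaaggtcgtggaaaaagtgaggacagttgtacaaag

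Distal peaks outside the 14 regions numbered 6 over the replicates, and all were weak, from 0.745 to 1.78. At the end of Tmem107, over the gene of the small nucleolar RNA Snord118, replicate 2 had a peak of 6.85 and replicate 3 one of 2.85, while replicate 1 had none. Replicate 2 had a further peak of 5.92 beside it, over the untranslated part of Tmem107 and 107 bp from the Snord118 start.

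Promoters of 7 of the 8 members were open in all 3 replicates, which means a common region within 500 bp of an annotated start, against 50.9% of all protein-coding genes. Aurkb encodes Aurora B, the kinase of the chromosomal passenger complex, which corrects the attachment of chromosomes to the spindle. Its promoter (gene at chr11:69045647-69051664) had signals of 5, 6.20 and 4.57, or 5.26 ± 0.846, above 47.0% of open genes. So the gene with the dense surroundings had a promoter of middling signal. Past the promoter the gene body was quiet: 5485 bases to the end of the gene had no stretch below the false discovery rate of 0.05 in any replicate. The central 200 bases of its promoter region hold CCAAT, the binding word of NF-Y, and CACGTG, the E box, but neither overlapped a footprint in any replicate. They are shown with both words in capitals. CCAAT occurs in 27.4% of promoter regions and CACGTG in 7.58%.
Aurkb promoter, chr11:69045621-69045820 (+): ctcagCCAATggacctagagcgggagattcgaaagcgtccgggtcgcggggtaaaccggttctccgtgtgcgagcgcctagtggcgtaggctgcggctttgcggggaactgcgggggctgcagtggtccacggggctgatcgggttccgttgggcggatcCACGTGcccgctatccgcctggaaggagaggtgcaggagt

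The other partners of Aurora B in the complex were open too, with 10.7 ± 1.05 at Birc5, 7.40 ± 3.09 at Incenp and 5.63 ± 1.98 at Cdca8. Ctc1 encodes the large subunit of the CST complex, which helps to finish the copying of chromosome ends. It had 6.11, 7.63 and 5.03 (6.26 ± 1.31), and the other subunits Stn1 and Ten1 had 11.54 ± 2.49 and 8.41 ± 1.08. Pfas, an enzyme of purine synthesis, had 7.01, 7.81 and 6.80 (7.20 ± 0.533), and all 6 listed enzymes of that pathway were open. Borcs6, a subunit of the BORC complex that moves lysosomes toward the cell edge, had 5.64, 10.7 and 6.19 (7.51 ± 2.77), and 8 of 8 BORC genes were open. Tmem107, a membrane protein of the ciliary transition zone, had 6.14, 8.83 and 6.09 (7.02 ± 1.57). With Aurkb, these 5 genes thus had means from 5.26 to 7.51, and their ranges over the replicates overlapped except for Aurkb and Pfas, whose values were apart.

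Vamp2 encodes synaptobrevin, which drives vesicle fusion at nerve terminals. Its promoter was the weakest of the open members, with 3.59, 2.63 and 3.25 (3.16 ± 0.488), and did not overlap any other open member. In its family Vamp3, which acts in most cell types, had 13.1 ± 2.70, and 6 of 6 listed genes with an annotation match were open.

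Per1, a repressor in the circadian clock, had the strongest mean and the largest spread. Its promoter signals were 7.21, 18.1 and 7.81, or 11.05 ± 6.14, and without replicate 2 the mean was 7.51. The promoter peak lay just before and over the gene start, and its E box, the word that the clock factors CLOCK and BMAL1 bind, overlapped a footprint in all 3 replicates. The central 200 bases of the region also hold the words searched for NF-Y, ETS and KLF factors, for which no footprint overlap is given here. Which factor left the footprint was not tested. These bases are shown with the E box in capitals.
Per1 promoter, chr11:69094961-69095160 (+): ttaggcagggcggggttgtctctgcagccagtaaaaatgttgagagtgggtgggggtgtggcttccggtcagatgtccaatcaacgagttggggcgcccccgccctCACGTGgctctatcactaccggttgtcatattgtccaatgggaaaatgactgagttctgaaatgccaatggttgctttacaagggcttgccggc

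Inside Per1 further peaks were found in every replicate. About 1.95 kb after the start, in an intron, the signals were 6.77, 7.29 and 5.75, and about 3.67 kb after it 6.25, 8.81 and 6.06. A weaker one near 4.83 kb had 2.97, 3.52 and 4.34. At the first of these, replicate 2 stood out far less than at the promoter. Promoters of 10 of 10 listed clock genes were open, and Per2 had 12.8 ± 3.78.

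Hes7 was the one closed member. It is a repressor that oscillates in the segmentation clock, which sets the rhythm of somite formation in the tail of the embryo. No peak lay within 500 bp of its start in any replicate, in the shorter or the longer list, although tRNA genes with peaks lie on either side of that start. About 2.3 kb after the start, a peak over a coding exon of Hes7 and no tRNA gene had 3.54, 3.31 and 3.41. An annotated start of the gene 9130213A22Rik lay inside that peak in replicates 1 and 3 and within 1 kb of it in replicate 2. By the 1 kb rule it is thus a promoter peak of 9130213A22Rik, and it cannot be credited to Hes7. Of 9 listed segmentation clock genes 4 were open (44.4%), near the 50.9% of all protein-coding genes. Hes5, Tbx6, Dll3 and Ripply2 were not open in all 3 replicates either, though Dll3 had 0.912 and 0.942 in replicates 2 and 3. The other pathway lists of the members had no closed gene among those with an annotation match.

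**Figure D5:**
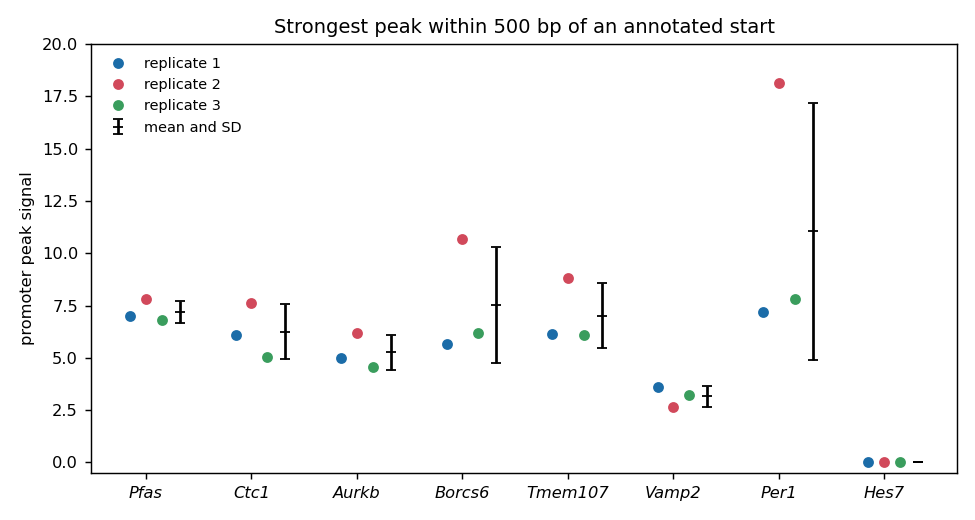
Promoter signal of the 8 genes in chromosome order, as the strongest peak within 500 bp of an annotated start, with 1 point per replicate and the mean with its SD (n = 3). Per1 has the highest mean with a spread set by replicate 2 (18.1), Vamp2 is the lowest of the open genes (3.16), and Hes7 is at 0 in all 3 replicates.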

How the data were processed

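DNase-seq peaks, footprints and false discovery rates were taken from 3 replicates of 1 group (4 files each). Each file comes from 1 sample, unpooled, aligned to mm10, per the deposited notes. The aligner and each caller: not given in the sources used here. In the authors' peak lists the deposited signal is the maximum cut density, normalized to read depth. It came in whole steps for 100% of values below 2 (within 0.02 steps). The deposited false discovery rates are a kind of p-value or q-value, listed only below 0.05. The deposited footprints all carry a threshold of 0.01.

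Here the shorter peak list was used, with the longer as an alternative. Peaks sharing at least 1 bp across replicates were joined, giving 61155 regions, and those with all 3 replicates were called common. Gene starts came from GENCODE M21, and tRNA genes and sequence from RefSeq GRCm38. Words of 36 bases were counted over the whole genome on both strands. Motifs were searched on both strands: GTTCGANNC for the B box, CACGTG for the E box, TGACGTCA for CRE, AGATAA for GATA factors, CCAAT for NF-Y, CCGGAAG for ETS factors, CCACCC for KLF factors, and the A box and CTCF by consensus. Joining was tested on simulated peaks. Python 3.11.15, numpy 2.4.6 and pysam 0.24.0 were used. With 1 group there was no test, and the alternatives are described in the closing section.

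The members, gene lists and motifs were chosen with earlier results of these data known. The text names all 8 members and the tRNA genes of the run, with those of the strongest distal regions in full (1 tRNA sequence and its 2 genes are not reported here), 5 dense neighbourhoods over 500 kb away and from each other, and for each list up to 4 genes with the highest mean.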

Additional observations from a re-analysis of the deposited data

How the results depend on the processing

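Counting tRNA gene starts as gene starts, an alternative added after seeing the data, lowered the distal peaks per replicate from 17 to 4.33 and the common distal regions from 14 to 3, since most of these regions hold a tRNA gene. Leaving out 1 replicate in turn gave 3.93 to 4.46 footprints per distal region. The lowest value was without replicate 2, when the aspartate and glycine genes fall in separate regions. Of 90 recomputed values 87 kept within 1.5 times for counts, within 1 SD for means or within the 95% exact binomial interval for shares. For promoter signals, a mean without 1 of 3 replicates always lies within 1 SD of the full mean. The other promoter settings returned the same values as the main one. The intervals for shares, from so few regions or genes, are wide. The tally of 87 is thus a description and little evidence of stability. The number of common distal regions ranged from 12 to 20 over the other windows, distances, lists and overlaps. The share holding a tRNA gene was 71.4% with the longer list and among the upper 50% of peaks, and 7 of 14 where the B box alone stood for a tRNA gene. No paired analysis was possible because the study has 1 group.

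Precision is limited by 3 replicates that carry 1 donor label and by a depth that no file states. A peak absent from 1 list can reflect its threshold. Signal over tRNA genes depends on how reads with several possible places were treated, which is not given in the sources used here.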

Other observations

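RNA polymerase III reads tRNA genes. Promoters of 23 of 23 listed genes of the polymerase and its factors were open, against 50.9% of all protein-coding genes. The highest means were 18.3 ± 5.02 at Polr3e, 14.7 ± 4.93 at Gtf3c1 (a subunit of TFIIIC), 14.0 ± 5.43 at Maf1 (a repressor of the polymerase) and 10.8 ± 4.43 at Brf1 (a subunit of TFIIIB). Not every run of tRNA genes was open in this liver. On chromosome 6, 0 of 48 cysteine tRNA genes in 1 run were reached by a common region, and on the X chromosome 0 of 8 alanine genes were. The median share of unique 36-base words, with 100 bases on either side, was 51.7% and 24.5% in those runs and 83.3% in the run near Aurkb. Over the genome, 212 of 291 tRNA genes with 80% or more unique words were reached (72.9%), against 27 of 112 with fewer (24.1%). The part of mappability in these differences was not tested.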
